A study of Mus musculus with 6 samples.

Results

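*A3galt2* and 6 genes related to it by family or by pathway were followed in heads of mouse embryos that had lost a copy of *Snrpb* in neural tube and neural crest. The 7 genes were taken by symbol from the 24421 genes of the count table: *A3galt2*, its family members *Ggta1*, *Gbgt1* and *Abo*, and the glycolipid synthases *A4galt*, *Ugcg* and *B4galt6*. *A3galt2* was chosen for its rise in these libraries, and the question asked of the others was whether they rose with it. Of the 7 genes, 5 had enough reads to be tested, and *Gbgt1* and *Abo* did not.

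*Snrpb* encodes a core protein of the spliceosome, and the RNAseq experiment compared 3 WT libraries with 3 *Snrpb* ncc+/- libraries (called mutant) at E9.0. Each library was a pool of 2 heads of matched somite number and the same genotype, taken from different litters. WT pools are labeled SnrpB +/+. Mutant pools carried 1 conditional allele, in which *loxP* sites flank exons 2 and 3, and the Wnt1-Cre2 transgene, which is active in neural tube and neural crest, so that the other cells of the mutant heads kept both copies of *Snrpb*. Whether the WT pools carried the Cre transgene is not given. The conditional line was made by genome editing and the embryos were on a mixed CD1 and C57BL/6J background. Each library held between 36378803 and 74909774 counted reads. At the level of the whole gene *Snrpb* itself lay between 414 and 438 CPM (counts per 1000000 of the TMM-scaled library size) in WT and between 412 and 436 CPM in mutants. Its gene count includes exons outside the deletion and cells without it.

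Glycosphingolipids are membrane lipids that carry sugar chains on ceramide, and they are built one sugar at a time by glycosyltransferases of the Golgi. *Ugcg* adds glucose to ceramide, and *B4galt5* and *B4galt6* then add galactose, which gives lactosylceramide. From lactosylceramide the path branches: *A4galt* starts the globo series, *A3galt2* the isoglobo series, *B3gnt5* the lacto and neolacto series and *St3gal5* the ganglio series. *A3galt2* and *Ggta1* both add an alpha-linked galactose to a terminal galactose, *A3galt2* on lactosylceramide and *Ggta1* on glycoproteins and glycolipids, where it makes the alpha-gal epitope that humans lack. *Gbgt1* makes the Forssman glycolipid, *Abo* makes blood group antigens, and *Glt6d1* is a further gene of the same family.

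*A3galt2* lies on the plus strand of chromosome 4, from 128755364 to 128769298 (mm10, Gencode M21), *Ugcg* on the same chromosome from 59189257 to 59222833, and *A4galt* on chromosome 15 from 83226722 to 83251774. The other family members lie on chromosome 2, *Abo* from 26842503 to 26864979, *Gbgt1* from 28496891 to 28505415 and *Ggta1* from 35400179 to 35463231. The annotation gives *A3galt2* 2 transcripts, with starts at 128755364 and 128759258, and counts per gene do not tell them apart. Shown here are the 250 bases before the RefSeq starts of the gene that was higher in mutants and of its expressed family member, 5′ to 3′ on the strand of the gene, with each CG dinucleotide in capitals (GRCm38.p6, chr4:128759008-128759257 on the plus strand for *A3galt2* and chr2:35461450-35461699 on the minus strand for *Ggta1*).
A3galt2: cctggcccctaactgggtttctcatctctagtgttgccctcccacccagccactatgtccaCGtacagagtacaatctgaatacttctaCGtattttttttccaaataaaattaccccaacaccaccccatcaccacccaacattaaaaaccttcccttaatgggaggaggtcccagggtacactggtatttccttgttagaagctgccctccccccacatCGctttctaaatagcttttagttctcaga
Ggta1: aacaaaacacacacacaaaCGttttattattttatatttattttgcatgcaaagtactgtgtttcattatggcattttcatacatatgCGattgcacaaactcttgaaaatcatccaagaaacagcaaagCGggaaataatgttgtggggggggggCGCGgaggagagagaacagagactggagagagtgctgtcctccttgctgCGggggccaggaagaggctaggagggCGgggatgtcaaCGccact
Both windows overlap no annotated exon, and both lie inside the span of another transcript of the gene, which starts further upstream. The *A3galt2* sequence held 3 CG in 250 bases and the *Ggta1* sequence held 8, where the median over 32851 RefSeq windows of this length was 6. A GC box (GGGCGG, searched on both strands) was found in the *Ggta1* window, in no position of the *A3galt2* window and in 32.7% of all windows. The TATA sequence TATAAA, searched in the same way, was again found in the *Ggta1* window and in no position of the *A3galt2* window, beside 12.4% of all windows. The consensus of a p53 half-site was found in neither, beside 7.13% of all windows. The corresponding windows of *Gbgt1*, *A4galt* and *Ugcg* held 1, 13 and 43 CG, and those of *A4galt* and *Ugcg* overlap annotated exons. These matches describe the letters of the windows and were not read as sites.

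*A3galt2* had 119, 227 and 130 counts in the 3 WT libraries and 457, 625 and 629 in the 3 mutant libraries. Scaled to depth these were 3.27, 3.87 and 3.51 CPM in WT and 10.8, 8.22 and 9.46 CPM in mutants. Every mutant library lay above every WT library, and the lowest of the 9 ratios of a mutant to a WT library was 2.13 and the highest 3.31. In bulk heads, a larger share of cells with the transcript and more transcript per cell cannot be told apart. The log2 fold change of mutant against WT was 1.41 (standard error 0.13, 95% interval 1.12 to 1.70), or a fold of 2.66. Only 17 of the 15584 tested genes had a change at least as large in either direction, *A3galt2* included. The groups did not overlap in 13 of these, which are picked by the size of their change, beside 15.2% of all tested genes.

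*A3galt2* was picked by these values, so they describe it and test nothing. It was the only gene past an adjusted *P* of 0.05 with edgeR's quasi-likelihood test, with an adjusted *P* of 0.0296, which makes a share of 0.00642% of the tested genes. Just outside the threshold was *Phlda3*, a target of p53, with a log2 fold change of 1.57 (standard error 0.17) and an adjusted *P* of 0.0599, followed by *Rabggtb*, *Necab3*, *Cdkn1a* and *Eda2r*, all at 0.182. At an unadjusted *P* of 0.05 edgeR called 1314 genes, or 8.43% (4.34% higher and 4.09% lower in mutants), and DESeq2 called 84 genes after adjustment. DESeq2 gave *A3galt2* an adjusted *P* of 2.85e-16. With edgeR its place past the threshold depended on single libraries. The adjusted *P* was 0.0642 without WT replicate 2 and 0.425 without WT replicate 3. It was 0.0589 without mutant replicate 2 and 0.109 without mutant replicate 3. The log2 fold change of *A3galt2* lay between 1.31 and 1.51 over all 6 omissions. The summed level of 4 Y-linked genes was also higher in mutants on average (62.8 to 120 CPM in WT, 111 to 228 CPM in mutants, so that the groups overlapped). The covariate called the Y-linked level was the mean log2 CPM of these 4 genes. With it *A3galt2* had a log2 fold change of 1.45 and an adjusted *P* of 0.125 with edgeR.

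**Figure D1:**
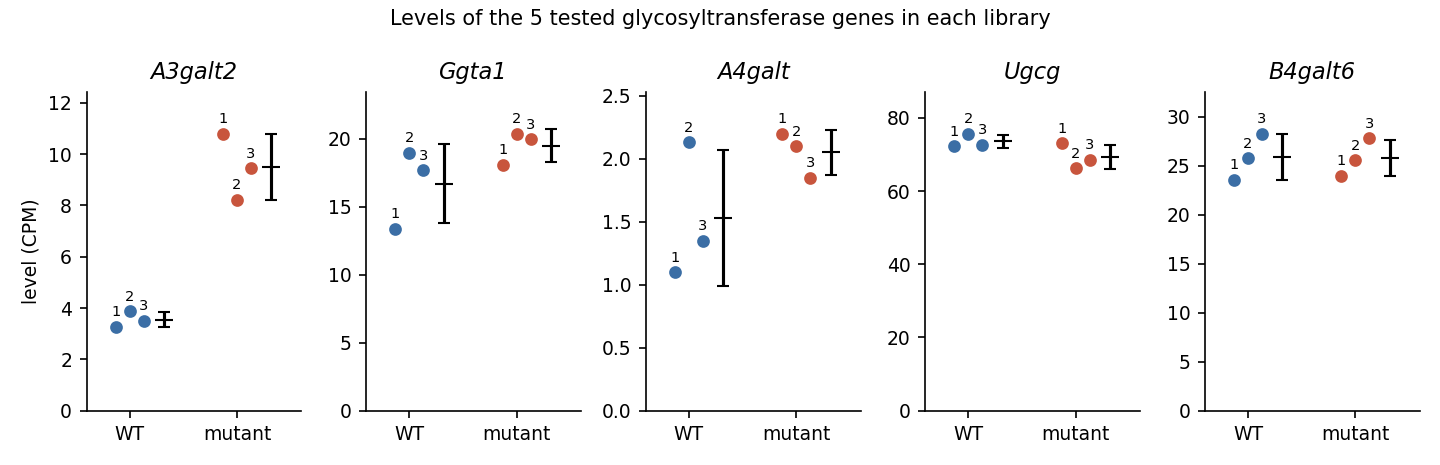
Level of the 5 tested genes in each library, in CPM on axes that start at 0, with WT libraries in blue, mutant libraries in red, the replicate number beside each point and the mean with its SD as a bar (n = 3 pools of 2 heads). The groups are apart for *A3galt2*, with WT libraries from 3.27 to 3.87 CPM and mutant libraries from 8.22 to 10.8 CPM, and they overlap for *Ggta1*, *A4galt*, *Ugcg* and *B4galt6*.

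Among the family members, *Ggta1* was the only other gene with a level well above the counting floor. It had 13.4, 19.0 and 17.7 CPM in WT and 18.1, 20.4 and 20.0 CPM in mutants. WT replicate 1 was the lowest library, and the other WT libraries lay within or next to the range of the mutants, so the groups overlapped. The means were 16.7 ± 2.92 and 19.5 ± 1.20 CPM (SD, *n* = 3), and the log2 fold change of 0.22 (standard error 0.12, 95% interval -0.06 to 0.50) did not pass the test (edgeR, adjusted *P* = 0.668). Without WT replicate 1 the log2 fold change of *Ggta1* was 0.085.

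The balance between both alpha-galactosyltransferases was read within each library. For each *A3galt2* count there were 4.10, 4.91 and 5.05 *Ggta1* counts in the WT libraries and 1.68, 2.48 and 2.11 in the mutant libraries, a ratio that needs no scaling for depth. The ranges were apart, but *A3galt2* was chosen by its values in this contrast, so the gap is a description. *Ggta1* had the higher count in every library of both genotypes.

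*Gbgt1* had 1, 2 and 2 counts in WT and 0, 2 and 2 in mutants, and *Abo* had 0 counts in WT and 0, 1 and 1 in mutants. *Glt6d1* had 1 count in WT replicate 3 and none in any other library. All are at or under a floor of 3 counts per library, which corresponds to between 0.0395 and 0.0824 CPM, so that no fold change is given. Transcripts of the Forssman and blood group transferases were therefore too few at this depth to compare the genotypes, while *A3galt2* and *Ggta1* were above that floor in all 6 libraries.

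*A4galt*, which acts on the same substrate as *A3galt2* and opens the globo series, had the lowest level of the tested genes, in CPM and per kilobase of exon. It had 1.10, 2.13 and 1.35 CPM in WT and 2.20, 2.10 and 1.85 CPM in mutants. WT replicate 2 lay within the range of the mutants, while the other WT libraries were lower. The means were 1.53 ± 0.537 and 2.05 ± 0.182 CPM (SD, *n* = 3), and the log2 fold change of 0.40 (standard error 0.24, 95% interval -0.14 to 0.93) did not pass the test (edgeR, adjusted *P* = 0.680). The value moved with single libraries, to 0.20 without WT replicate 1 and 0.74 without WT replicate 2, with adjusted *P* of 0.797 and 0.297 (edgeR). With the Y-linked level as a covariate it was 0.11 (edgeR, adjusted *P* = 0.999). *A4galt* had 40, 125 and 50 counts in WT and 93, 160 and 123 in mutants, and a rise of up to 1.91-fold lies within its interval.

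WT replicate 1 was also the library with the lowest summed level of 8 surface ectoderm markers, 354 CPM against 480 to 488 CPM in the other 5 libraries. It had the highest sum of 9 visceral endoderm and yolk sac markers, 38.6 CPM against 10.8 to 12.7 CPM, and the highest sum of 8 neural tube markers, 796 CPM against 633 to 676 CPM. It also had the lowest *Ggta1* and *A4galt* levels, the latter close to that of WT replicate 3, and the part of tissue makeup in those levels was not tested. For *A3galt2* WT replicate 1 was close to the other WT libraries, and with that library left out its log2 fold change was 1.35. Neural crest markers summed to 286 to 375 CPM over the 6 libraries, endothelial markers to 223 to 279, erythroid markers to 880 to 1494 and cardiac markers to 13.6 to 148, with overlapping genotypes in each. WT replicate 1 had the lowest neural crest and cardiac sums and the highest erythroid sum. No gene of the 7 marker lists passed the threshold. The globin genes *Hba-a1* and *Hba-a2* had 0 counts in all libraries. Shared sequence was not checked for them, so absence of their transcripts cannot be read from these counts.

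Upstream of the branch, *Ugcg* had the highest level of the 7 genes, in CPM and per kilobase. It had 72.3, 75.7 and 72.7 CPM in WT and 73.0, 66.3 and 68.6 CPM in mutants. Mutant replicate 1 lay among the WT libraries and the others lay below them, with means of 73.6 ± 1.84 and 69.3 ± 3.41 CPM (SD, *n* = 3). Its log2 fold change of -0.087 (standard error 0.05, 95% interval -0.20 to 0.025) did not pass the test (edgeR, adjusted *P* = 0.672).

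*B4galt6*, for the next step, lies on chromosome 18 from 20684599 to 20746404. It had 23.6, 25.8 and 28.3 CPM in WT and 24.0, 25.6 and 27.8 CPM in mutants. The ranges of the genotypes nearly coincided, and the means were 25.9 ± 2.33 and 25.8 ± 1.88 CPM (SD, *n* = 3). The fold was 0.996 with a 95% interval of 0.879 to 1.13 (log2 fold change -0.0053, standard error 0.08, edgeR, adjusted *P* = 0.994). *B4galt5*, which performs the same step, had 30.5, 32.3 and 31.1 CPM in WT and 29.5, 28.2 and 28.8 CPM in mutants. Its groups did not overlap, but the log2 fold change of -0.12 (standard error 0.05) did not pass the threshold (edgeR, adjusted *P* = 0.558).

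None of the 4 other tested members was called with edgeR or with DESeq2. The sign of the *B4galt6* value, which was near 0, turned with the scaling.

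Levels of different genes were compared per kilobase of exon. In WT heads the order was *Ugcg* with 14.1 ± 0.352, *B4galt6* with 4.46 ± 0.401, *Ggta1* with 3.55 ± 0.621, *A3galt2* with 0.989 ± 0.0837 and *A4galt* with 0.670 ± 0.236 CPM per kilobase (SD, *n* = 3). The ranges of the last 2 of these overlapped between libraries, since *A4galt* reached 0.934 in WT replicate 2 and *A3galt2* started at 0.911 in WT replicate 1. Within each WT library *A3galt2* was higher, with 0.911, 1.08 and 0.979 against 0.482, 0.934 and 0.593 for *A4galt*. *B4galt6* and *Ggta1* were next to each other, with the lowest *B4galt6* library at 4.07 and the highest *Ggta1* library at 4.03. In mutants *A3galt2* had 2.65 ± 0.362 CPM per kilobase and lay clear of *A4galt*, with 0.901 ± 0.0798, and below *Ggta1*, with 4.14 ± 0.255. Among the 75 genes of the pathway lists ranked by this level, *A3galt2* was at place 53 in WT and 43 in mutants, a move of 10 places, while *Ugcg* was at place 13 in both, *B4galt6* at 34 and 35, and *A4galt* at 58 and 55.

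The wider pathway was read from 7 lists with 75 genes, of which 69 were tested. *A3galt2* was the only gene of these past the threshold in either direction. The other 68 tested genes had log2 fold changes from -0.55 to 0.44 with a median of -0.005, where the median over all tested genes was 0.00041. Of these 68 genes 32 were higher and 36 lower in mutants, and the smallest adjusted *P* was 0.554 (edgeR). At an unadjusted *P* of 0.05, 1 was higher and 1 lower, and the groups did not overlap in 7 of the 68, or 10.3%, against 15.2% of all tested genes (8.32% higher and 6.92% lower in mutants). By DESeq2 no gene of these lists but *A3galt2* was called either, where 0.651% of the genes with an adjusted *P* were. The highest upper end of the intervals of these 68 genes was 1.14, for *Gal3st1*, which was read at 0.275 to 0.838 CPM.

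**Figure D2:**
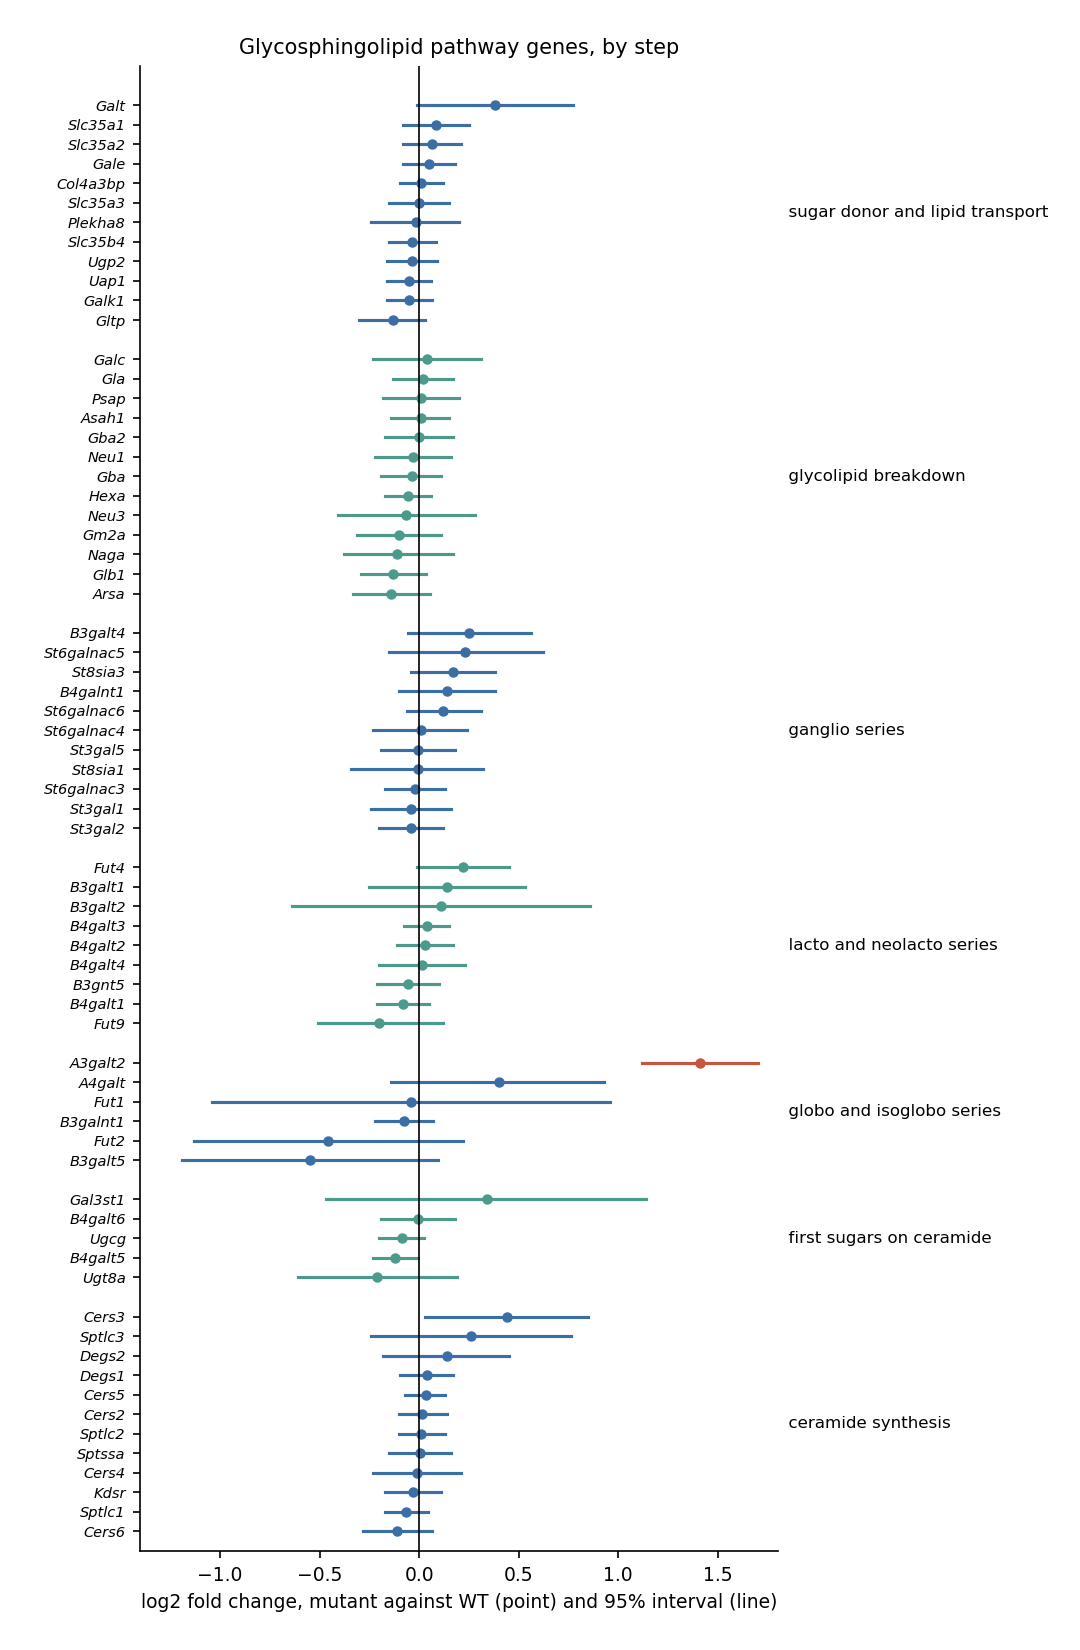
Log2 fold change of mutant against WT (points) with its 95% interval (lines) for 68 of the 69 tested genes of the pathway lists, grouped by step, with the zero line marked. *A3galt2*, in red at 1.41, stands to the right of all other points, which lie between -0.55 and 0.44, and the wide lines belong to genes with few reads.

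Within the globo and isoglobo list, which holds *A3galt2*, 4 of 6 tested genes were lower in mutants. *B3galnt1*, which extends the product of *A4galt* to globoside, had 16.2 ± 0.445 CPM in WT heads and 15.4 ± 0.418 in mutant heads (SD, *n* = 3, log2 fold change -0.075, edgeR, adjusted *P* = 0.777). *Gla*, the lysosomal galactosidase that removes the terminal alpha-linked galactose and is deficient in Fabry disease, had 18.8 ± 0.267 and 19.1 ± 1.16 CPM (log2 fold change 0.020, edgeR, adjusted *P* = 0.952). Neither the enzyme after *A4galt* nor the enzyme that undoes such linkages passed the test. *B3galt5*, *Fut1* and *Fut2*, which act further along, were all under 1 CPM in every library, and their 95% intervals were wide, from -1.04 to 0.96 on the log2 scale for *Fut1*.

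At the other exits from lactosylceramide, *B3gnt5*, which starts the lacto and neolacto series, was read at 85.8, 94.2 and 104 CPM in WT and 89.4, 94.1 and 90.3 CPM in mutants (log2 fold change -0.054, 95% interval -0.21 to 0.099). *St3gal5*, which adds sialic acid and starts the ganglio series, had 20.7 ± 0.0984 CPM in WT heads and 20.7 ± 2.44 in mutant heads (SD, *n* = 3, log2 fold change -0.0046). Both were well above *A3galt2* per kilobase of exon in WT, at 18.2 for *B3gnt5* and 7.90 for *St3gal5* against 0.989 CPM per kilobase. The next enzymes of the ganglio series, *St8sia1* and *B4galnt1*, had log2 fold changes of -0.0084 and 0.14. None of the 9 tested genes of the lacto and neolacto list or the 11 of the ganglio list passed the threshold, and their medians were 0.031 and 0.0068 on the log2 scale.

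Of the 68 tested pathway genes other than *A3galt2*, 4 were higher in mutants with groups that did not overlap, beside 8.32% of all tested genes, and none in either direction passed the threshold. Those higher were *Cers3*, a ceramide synthase for very long acyl chains, with 0.751 ± 0.0349 CPM in WT heads and 1.02 ± 0.0440 in mutant heads (SD, *n* = 3, log2 fold change 0.44, standard error 0.18, edgeR, adjusted *P* = 0.554), *Galt*, an enzyme of galactose metabolism (0.38, adjusted *P* = 0.602), the fucosyltransferase *Fut4* (0.22, adjusted *P* = 0.611) and the sialyltransferase *St6galnac6* (0.12, adjusted *P* = 0.710). Lower in mutants were, among others, *B4galt5*, described above, and *Arsa*, which removes sulfate from sulfatide (log2 fold change -0.14, adjusted *P* = 0.687). The largest of these changes, that of *Cers3*, had a 95% interval of 0.027 to 0.85. *Ugt8a*, which diverts ceramide to galactosylceramide in competition with *Ugcg*, had 1.93 ± 0.364 and 1.67 ± 0.105 CPM (log2 fold change -0.21, adjusted *P* = 0.777), with groups that overlapped.

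By step, the median log2 fold change was 0.014 over 12 genes of ceramide synthesis, -0.087 over 5 genes of the first sugars, -0.046 over 14 genes of glycolipid breakdown and -0.01 over 12 genes of sugar donor and lipid transport. In none of these lists was a gene called. For breakdown 9 of 14 genes were lower in mutants. Of the 75 listed genes 6 were not tested for lack of reads: *Sptssb*, *Cers1*, *Gbgt1*, *St8sia5*, *Neu2* and *Neu4*, with between 0 and 56 counts over all 6 libraries.

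No neighbor of *A3galt2* passed the test. *Phc2*, a Polycomb gene that ends 2482 bases before it on the same strand, had a 95% interval of the log2 fold change of -0.18 to 0.18 (edgeR, adjusted *P* = 1.0). *Zfp362*, a zinc finger gene 3789 bases beyond it on the opposite strand, had a log2 fold change of -0.13 (95% interval -0.36 to 0.093, edgeR, adjusted *P* = 0.746). Of the 14 other tested genes with a start within 500 kilobases, 6 were higher and 8 lower in mutants, none had an unadjusted *P* under 0.05, and the log2 fold changes lay between -0.48 (*Tlr12*) and 0.092 (*Hpca*). The groups did not overlap in 1 of the 14, *S100pbp*, which was lower, beside 15.2% of all tested genes in either direction and 6.92% lower in mutants.

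**Figure D3:**
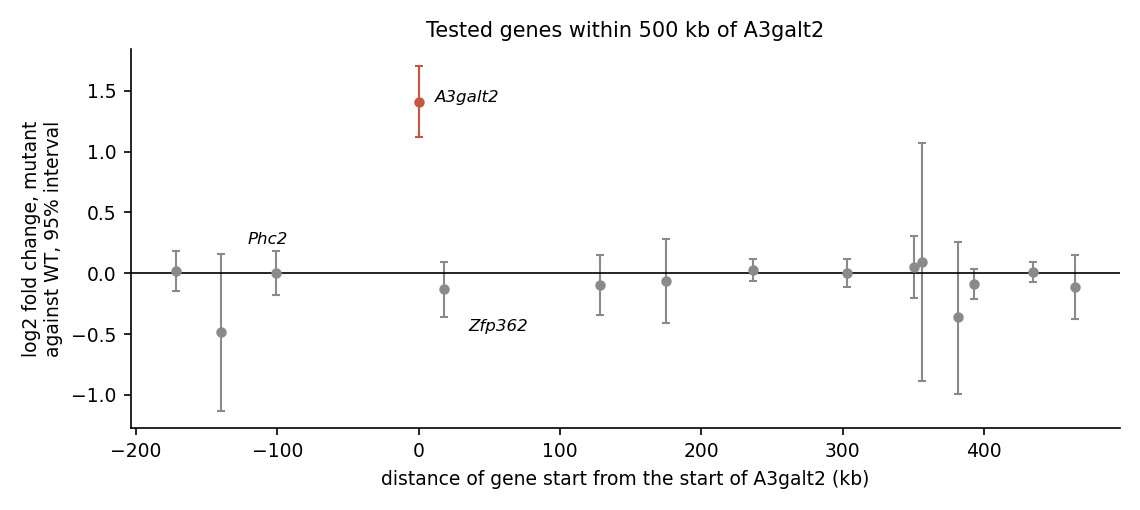
Log2 fold change of mutant against WT with its 95% interval for *A3galt2* and the 14 other tested genes with a start within 500 kilobases, against the distance of each gene's start from that of *A3galt2* in kilobases. *A3galt2* is at 1.41 in red, and the other genes, in gray, lie between -0.48 and 0.092 with intervals that hold 0.

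The genes next to the other members gave no call either. Beside *Ggta1* lay *Stom* (log2 fold change 0.16) and *Dab2ip* (0.061), beside *Gbgt1* lay *Mrps2* (0.0099) and *Ralgds* (-0.0059), and beside *Abo* lay *Snora17* (0.30) and *Surf6* (0.12). *A4galt* had *Cyb5r3* (-0.0047) and *Arfgap3* (-0.12) as neighbors, and *Ugcg* had *Gng10* (-0.03) and *Susd1* (0.013). The largest value was that of *Ttr* beside *B4galt6*, -1.37 with a standard error of 0.89 (edgeR, adjusted *P* = 0.716). *Ttr* belongs to the visceral endoderm and yolk sac markers, whose sum was highest in WT replicate 1. *Trappc8*, on the other side of *B4galt6*, had -0.012. The 12 neighbors of the other 6 members had adjusted *P* of 0.491 or more (edgeR).

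Shared sequence was checked, since near-identical genes can exchange reads. Of the 3538 stretches of 50 bases in the transcripts of *A3galt2* and the 4849 in those of *Ggta1*, none occurred in the transcripts of another gene. Of the *A4galt* stretches at most 3.77% did, of those of *Ugcg* at most 1.07% and of those of *B4galt6* at most 0.851%. Both strands were searched, and a stretch matched on both was counted once for each, so these shares are upper limits. The only annotated gene that overlaps a member is *Gm43761*, inside the span of *Ggta1* on the same strand, which has no row of its own in the counts.

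The genes most like *A3galt2* over the 6 libraries were *Ptpn3*, *Acat3*, *Adamts19*, *Rps27l* and *Btf3l4*, by Pearson's r of log2 CPM among 13138 tested genes with a mean of at least 1 CPM. Their r was between 0.986 and 0.998. The 6 libraries fall into 2 genotypes, so a high r is mostly the gap between them, and it is a description of 6 points with shared libraries. *Ptpn3*, a protein tyrosine phosphatase, had 6.56, 6.71 and 6.65 CPM in WT and 8.45, 8.01 and 8.11 CPM in mutants. *Acat3* had 1.26, 1.26 and 1.27 CPM in WT and 2.08, 1.82 and 1.90 CPM in mutants. In both, as in *A3galt2*, mutant replicate 1 was highest and mutant replicate 2 lowest. None of the 5 genes passed the threshold, with adjusted *P* from 0.300 to 0.437 (edgeR).

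**Figure D4:**
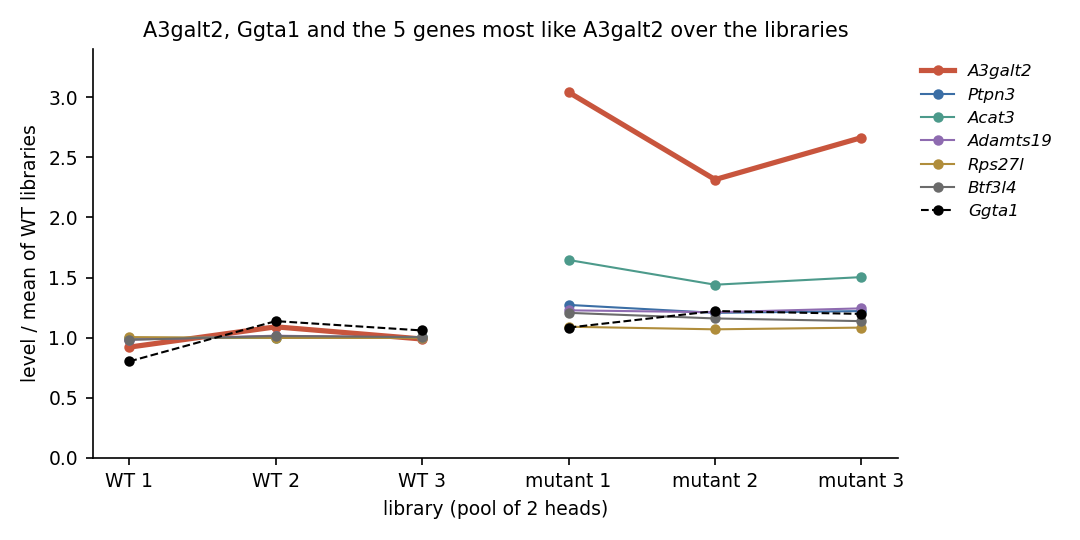
Level of *A3galt2*, of the 5 genes most like it and of *Ggta1* (dashed) in each library, divided by the mean of that gene's WT libraries, with lines that only join the points of a gene. *A3galt2* (thick red) stands highest in the mutant libraries, with 8.22 CPM or more in each against a WT mean of 3.55 CPM, the 5 genes like it lie closer to their WT mean, and *Ggta1* dips in WT replicate 1.

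An r above 0.95 was reached by 51 of the 13138 genes, or 0.388%, and by 0 of the 63 pathway genes compared. The members were further from *A3galt2*: r was 0.70 for *A4galt*, 0.61 for *Ggta1*, -0.04 for *B4galt6* and -0.55 for *Ugcg* over the same 6 libraries.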

How the data were processed

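RNAseq was made from 3 WT and 3 *Snrpb* ncc+/- pools of E9.0 heads with a stranded, rRNA-depleted total RNA kit. The deposited values are raw counts (whole numbers, not normalized) for each gene symbol, which the authors made by mapping trimmed paired reads to mm10 with STAR and counting against Gencode M2. Their methods name HTSeq as the counter while the submitters' processing notes list featureCounts, and whether the counting used strand is not given in the sources used here. All 6 columns were used, grouped by the genotype in the labels.

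Tests used the quasi-likelihood method of edgeR (version 4.0.16, in R version 4.3.3) with robust dispersions, TMM scaling and the filterByExpr filter. They were two-sided, with Benjamini-Hochberg adjustment over the 15584 genes kept of 24421, with a threshold of 0.05. Standard errors and intervals are on the log2 scale. CPM is the count per 1000000 of the TMM-scaled library size, and the level per kilobase divides it by the exon length in Gencode M21, to which 23376 symbols were matched. The floor is 3 counts per library. *Gbgt1* and *Abo* were left out by the filter and, being at or under that floor, were given no fold change, although a fit without the filter had been planned for them. Between pools the biological coefficient of variation was 0.0871, and this spread may in part be technical. Its share in the precision, beside that of counting, was not worked out for genes with few counts. Such genes were *A4galt*, with 40 counts in WT replicate 1, and *A3galt2*, with 119 in the same library.

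The members and gene lists were chosen with earlier results of these data known. Named were the 7 members, genes that share a step, substrate or product with a member, the pathway genes with the smallest unadjusted *P* whose groups did not overlap (at most 10), the nearest tested gene on each side of each member, and the 5 genes most like *A3galt2*. *S100pbp*, *Tlr12*, *Hpca*, *Gal3st1*, *B3galt5*, *Fut1* and *Fut2* were named after their values were seen. The values of 1 gene of the pathway lists are not reported here, although it is part of the counts and medians. Alternatives were DESeq2 (version 1.42.0), TMM replaced by its size factors or by library size, no filter, at least 10 counts in every library, a replicate block, the Y-linked level as a covariate, and leaving out each library. Sequences came from RefSeq, with entries for 5 of the 7 members (*Abo* and *B4galt6* had none), and only bases before the start were used. The fits were tested on simulated data.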

Additional observations from a re-analysis of the deposited data

How the results depend on the processing

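The number of genes called was 1 with edgeR, 84 with DESeq2, 11 with no filter and 0 with the Y-linked level as a covariate, and leaving out single libraries gave 0 to 6. *A3galt2* kept its direction in all 13 alternatives, with log2 fold changes from 1.31 to 1.51. It kept its call with, among others, DESeq2 (1.40, adjusted *P* = 2.85e-16) and no filter (1.41, adjusted *P* = 0.00101 with edgeR). It lost its call with the replicate block (1.40, adjusted *P* = 0.052 with edgeR), with the Y-linked covariate (1.45, adjusted *P* = 0.125 with edgeR) and in 4 of 6 omissions. The cause of these losses was not tested. The number of pathway genes called went from 1 to 0 under the block and the Y-linked covariate and was 0 to 1 over the omissions. No pathway gene other than *A3galt2* was called in any alternative, with a lowest adjusted *P* of 0.297 (edgeR). *Ggta1*, *A4galt* and *Ugcg* kept their direction throughout. *B4galt6* turned to 0.0067 with library size alone, to 0.13 with the Y-linked covariate, and ranged from -0.068 to 0.06 over the omissions; the cause was not tested.

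Replicate numbers do not pair the pools by the labels. Same-numbered pools deviated together with correlations of 0.169, 0.0317 and 0.36. For WT replicates 1 and 3 these were the highest values, while WT replicate 2 had a similar 0.0386 with mutant replicate 1. Pools with different numbers had correlations from -0.245 to 0.0875. Since the labels give no pairing, the block was kept as an alternative only. Depth limited *Gbgt1* and *Abo*, which were at or under 3 counts in every library.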
